A study of Mus musculus with 6 samples.

Results

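The enzymes of cytosolic glucose metabolism were examined, isoenzyme by isoenzyme, in RNAseq libraries of mouse osteoclasts with and without the sugar transporter Slc37a2. Members were chosen by symbol: 40 genes of glycolysis, its fructose-2,6-bisphosphate branch, the pentose phosphate pathway and glycogen metabolism. Of these, 39 were among the 22601 genes of the count table, 38 passed the filter on low counts and were among the 13483 genes tested, and *Fbp1* was not analysed here. *Pgam2* was listed but not tested, with between 0 and 6 counts per library.

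The libraries came from 3 WT and 3 *Slc37a2* KO mice aged 11 weeks, on the C57BL/6N background. KO mice were homozygous for *Slc37a2* tm2a(KOMP)Wtsi, a gene-trap allele made from a single embryonic stem cell clone, and the WT mice carried no such allele. By the labels, all 6 libraries were bone marrow macrophage (BMM)-derived osteoclasts, stimulated for 5 days with 10 ng/ml RANKL, the cytokine that drives osteoclast formation, and 2 ng/ml M-CSF, the growth factor of macrophages. The study's results section likewise names osteoclasts of WT and KO mice as the material of its multi-omics, RNAseq included. Its RNAseq methods describe RNA of whole femurs and tibias instead, from male and female mice. Libraries are named by the animal number in the column heading, since no replicate number was given there. Each heading also holds the letter F, from which no sex was assigned here.

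Glycolysis splits glucose into pyruvate and yields ATP and NADH, and lactate dehydrogenase turns pyruvate into lactate to recover NAD. The pentose phosphate pathway branches off at glucose-6-phosphate and supplies NADPH and ribose, and glycogen stores glucose for later release. Osteoclasts are large multinucleate cells that dissolve bone, and their formation and acid secretion are known to draw on glycolysis and mitochondrial respiration. Slc37a2 belongs to a family of sugar phosphate carriers.

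Library totals ran from 27552183 to 42522292 counts. *Slc37a2* had 75789, 60889 and 76013 counts in WT libraries and 1233, 1446 and 1043 counts in KO libraries, in keeping with the genotype labels. The osteoclast markers were all detected (14 of 14 listed and tested), and markers of muscle, neutrophils and red cells were nearly missing, with summed levels of 5.05 to 8.11, 0.337 to 1.40 and 0 to 0.0956 CPM (counts scaled to library size). Libraries of the same genotype differed in markers of cell state. Macrophage markers (13 of 13 tested) summed to 9560, 8652 and 5534 CPM in WT K090, L080 and L082 and to 5495, 9061 and 5810 CPM in KO K089, L078 and L081. KO L078 thus lay with WT K090 and L080, and WT L082 with KO K089 and L081. In bulk libraries, fewer cells of a type and less RNA per cell cannot be told apart.

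The enzymes of the later steps of glycolysis were among the most abundant transcripts of these cells. Levels of different genes are compared here as CPM scaled by TMM (edgeR's correction of library size) per kilobase of exon, averaged over the 6 libraries. *Aldoa*, the aldolase that cleaves fructose-1,6-bisphosphate, had the highest level of the members at 853, with 803 ± 68.2 in WT and 904 ± 151 in KO libraries (SD, n = 3 each), and ranked 24 among the 12855 tested genes with a known length. Pyruvate kinase (*Pkm*) followed at 457, *Ldha* at 284 and *Gapdh* at 230. Triosephosphate isomerase (*Tpi1*, 175), phosphoglycerate kinase (*Pgk1*, 139), enolase (*Eno1*, 135), *Ldhb* (123) and phosphoglucose isomerase (*Gpi1*, 106) came next among the glycolytic genes. By this measure *Pgk1* (120 to 153) and *Eno1* (122 to 164), neighbours in this order, overlapped between libraries. The order depends on the length used. *Eno1* has 5379 bases of exon but a longest transcript of 2027 bases, whereas *Pgk1* has 2244 and 1825.

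Hexokinase and phosphofructokinase 1 lay far below these. Hexokinase, which traps glucose in the cell, reached 34.3 for *Hk1*, 20.5 for *Hk3* and 8.10 for *Hk2*. Phosphofructokinase 1, the committed step, reached 12.1 for *Pfkm*, 9.91 for *Pfkp* and 9.47 for *Pfkl*. *Pfkfb2* makes and removes fructose-2,6-bisphosphate, the activator of phosphofructokinase 1. Its level of 52.7 lay above that of every hexokinase and phosphofructokinase 1 gene.

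In the pentose phosphate pathway, the carbon-shuffling enzyme transaldolase (*Taldo1*) was highest at 213. Phosphogluconate dehydrogenase (*Pgd*) stood at 93.2 and transketolase (*Tkt*) at 86.7, while glucose-6-phosphate dehydrogenase (*G6pdx*), the entry step, stood at 35.3. *Rpia*, which interconverts ribulose and ribose phosphates, was lowest at 2.58. Glycogen genes were all in the middle range, from 33.1 for *Pgm2* to 6.17 for *Pygl*, with glycogen synthase (*Gys1*) at 17.7 and branching enzyme (*Gbe1*) at 8.78. *Tigar*, a phosphatase that opposes the Pfkfb kinases, stood at 7.39. In all, 13 of the 38 tested members lay above the 95th percentile of gene levels, and 5 (*Pfkfb4*, *Rpia*, *Pfkfb3*, *Pfkfb1* and *Eno2*) lay below the median gene.

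**Figure D1:**
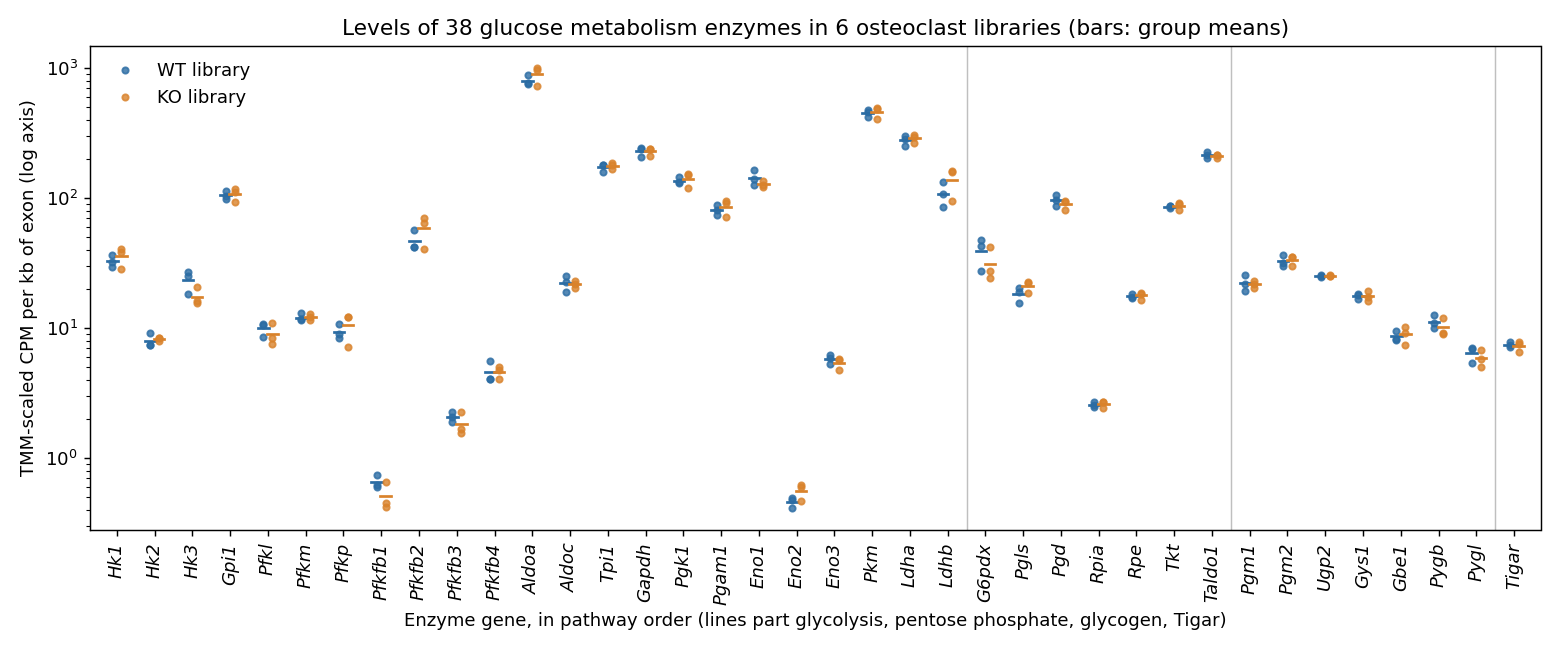
TMM-scaled CPM per kilobase of exon (log axis) of the 38 tested enzymes in pathway order, with 1 point per library and a bar at the mean of each genotype. *Aldoa* (853) and *Pkm* (457) stand at the top and *Eno2* (0.509) and *Pfkfb1* (0.580) at the bottom, and the points of both genotypes lie over each other at every gene.

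Promoter sequence is shown for the members in which a motif linked to oxygen sensing recurs. ACGTG is the core of the hypoxia response element bound by HIF-1, the factor that raises many glycolytic genes in low oxygen, and it was searched on both strands (CACGT on the printed strand is the same motif on the other). An E-box, CACGTG, holds it on both strands and was counted as 1 site. In the RefSeq promoters of GRCm38.p6, from 250 bases before to 50 after each start, it was found in 39% of the 59 promoters of members and in 19.6% of 32851 promoters of all genes. Counted by gene, 19 of the 40 members (47.5%) and 21.8% of all genes had a promoter with a match, and 7 members (17.5%) and 3.09% of all genes had a promoter with 2 or more separate sites. For 6 of these members a match lay upstream of the start, and 29 bases around the nearest are given 5′ to 3′ on the gene's strand, with the match in capitals.
Hk2 (chr6:82774490-82774518, minus strand): aatgagcacatcCACGTcactgtccgggg
Ldha (chr7:46845758-46845786, plus strand): cgtgggttcccgCACGTccgctgggctcc
Pfkm (chr15:98092442-98092470, plus strand): attaagtatgccACGTGaagtaagtaatt
Pgk1 (chrX:106186957-106186985, plus strand): aaatggaagtagCACGTctcactagtctc
Pgm1 (chr4:99929258-99929286, plus strand): ccaatcacagtaACGTGctgaactcttcg
Pkm (chr9:59657140-59657168, plus strand): ctccgatccggtCACGTccgcgccgcagc
*Ldha* held 3 sites, 2 of them E-boxes, and each of the others printed held 2. The site printed for *Pfkm* is an E-box. These matches describe the letters in a window, and binding was not measured. The promoters of all genes were not matched to those of the members in base composition or level.

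For 9 steps the members hold more than 1 isoenzyme, and the share of each was computed within a library from counts per kilobase. In 4 steps a single gene made up nearly all or most of the level. *Aldoa* held 97.3% ± 0.563 of aldolase in WT and 97.6% ± 0.452 in KO libraries (SD, n = 3 each, as for all shares). *Pgam1* held 99.9% of phosphoglycerate mutase in both genotypes, *Eno1* held 95.8% and 95.5% of enolase, and *Pfkfb2* held 86.5% ± 0.717 and 88.9% ± 3.14 of the Pfkfb family. *Ldha*, whose product favours lactate formation, held 72.2% ± 4.09 of lactate dehydrogenase in WT and 68.1% ± 4.90 in KO libraries. The remainder was *Ldhb*, the subunit typical of heart.

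Hexokinase was divided among 3 genes. *Hk1*, the mitochondria-bound housekeeping form, held 48.2%, 47.7% and 57.1% in WT libraries K090, L080 and L082 and 63.0%, 49.96% and 60.9% in KO libraries K089, L078 and L081. *Hk3*, the form typical of myeloid cells, held 40.7%, 40.4% and 28.7% in WT and 24.0%, 36.2% and 25.7% in KO libraries. The genotypes overlapped for both shares (exact permutation test, two-sided, p = 0.2 for each). *Hk2*, the inducible form, held between 11.1% and 14.2% in every library.

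Phosphofructokinase 1 was near evenly split, with *Pfkm* at 38.5% in both genotypes, *Pfkl* at 31.8% in WT and 28.6% in KO, and *Pfkp* at 29.7% and 32.9%. The order of these 3 genes depends on the length used. *Pfkl* led with 36.7% when the longest transcript was used, and *Pfkp* led with 55.7% of counts with no length. Brain-type glycogen phosphorylase (*Pygb*) held 63.3% against 36.7% for the liver type (*Pygl*) by exon length, but 49.2% by the longest transcript. The leading gene of the other 7 steps was the same by all 3 measures, but shares moved there too. By exon length, by the longest transcript and with no length, *Hk1* held 54.5%, 67.8% and 70.0% of hexokinase over the 6 libraries. *Hk3* held 32.6%, 23.5% and 18.4%, and *Ldhb* held 29.9%, 22.0% and 16.9% of lactate dehydrogenase.

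Across 23 shares, the WT and KO libraries lay apart for *Eno2* alone, the neuronal enolase, a minor form. Its share was 0.278%, 0.312% and 0.336% in WT and 0.471%, 0.365% and 0.420% in KO libraries, so every KO library was higher. The exact permutation test (two-sided) gave p = 0.1, the smallest that 3 libraries against 3 allow, and 0.708 after Benjamini-Hochberg adjustment over the 23 shares.

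**Figure D2:**
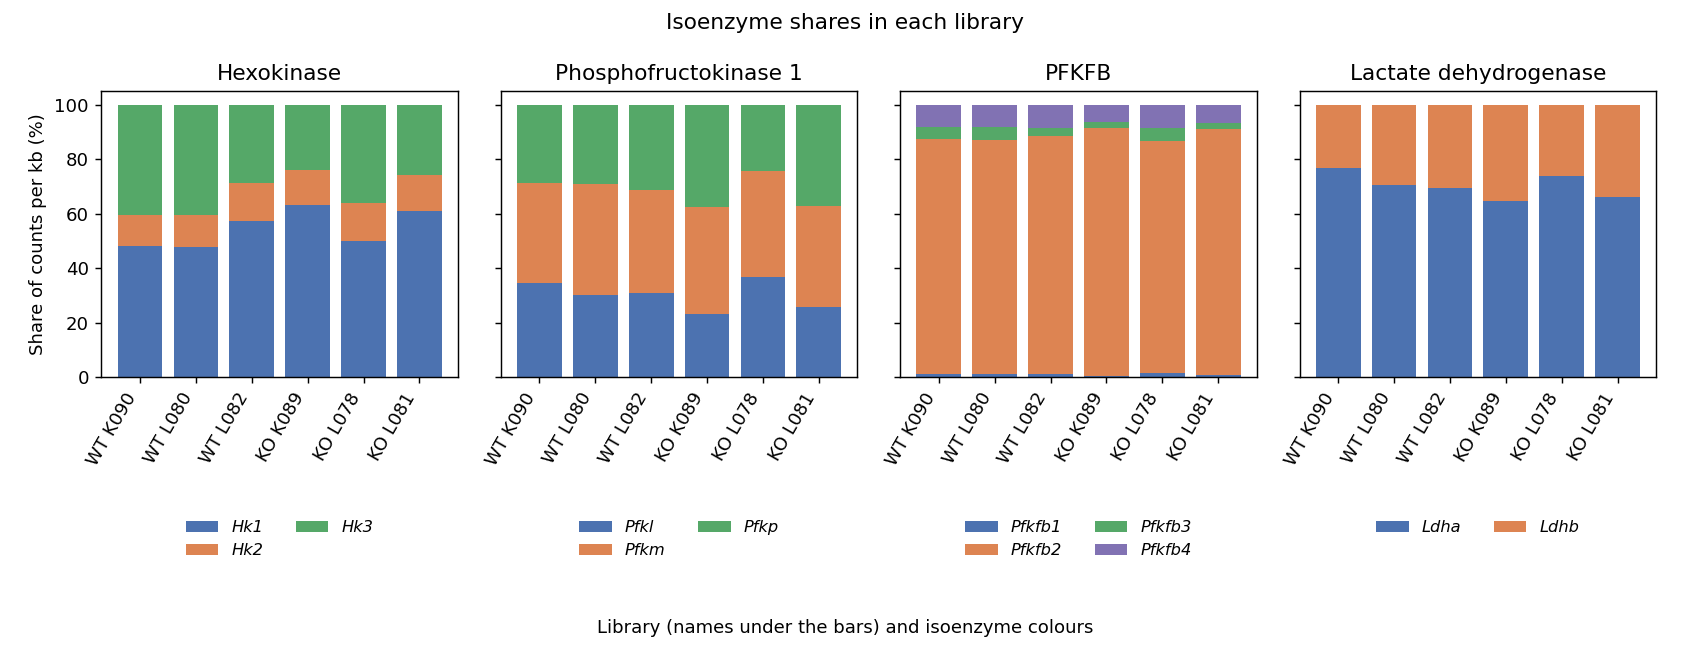
Share of each isoenzyme (percent of counts per kilobase of exon) in hexokinase, phosphofructokinase 1, the Pfkfb family and lactate dehydrogenase, with 1 stacked bar per library. The *Hk3* part runs from 24.0% to 40.7%, and KO L078 (36.2%) sits nearer to WT K090 and L080 than to the other KO libraries.

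To ask whether loss of Slc37a2 was accompanied by a change in these enzymes, KO was compared with WT by edgeR's quasi-likelihood test on the whole table. No member passed. At an adjusted p below 0.05 (Benjamini-Hochberg over 13483 genes), 0 of 38 members passed in that test of edgeR, beside 0.00742% of all genes (1 gene, *Slc37a2* itself). The count was also 0 with the likelihood ratio test of edgeR and the Wald test of DESeq2, and at an unadjusted p below 0.05 it was 1 of 38 (*Hk3*), beside 0.712% of all genes. The groups did not overlap for 0 members, beside 4.31% of all genes (1.5% with KO higher and 2.81% with KO lower).

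The log2 fold changes of KO over WT were small. Their median over the 38 members was 0.01, beside −0.02 over all tested genes, and they ran from −0.42 (*Hk3*) to 0.35 (*Ldhb*). Adjusted p ran from 0.969 to 0.999 over the members by the edgeR quasi-likelihood fit (Benjamini-Hochberg). The median absolute log2 fold change was 0.06, beside 0.10 over all tested genes. The estimate was above 0 for 21 members and below 0 for 17, and 43.8% of all genes had an estimate above 0. The 95% confidence interval lay inside a 2-fold change in either direction for all 38 tested members, beside 78.4% of all genes. With a 1.5-fold limit, chosen after seeing the data, it did so for 31 members, beside 61.1% of all genes. All tested genes were not matched to the members in level, and 13 members lay above the 95th percentile of gene levels.

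Summed over the 39 listed members, the enzymes took 13270, 12109.7 and 13193 CPM (before TMM scaling) in WT and 12891, 12149.9 and 13123 CPM in KO libraries. This was 1.29% ± 0.0649 of all counts in WT and 1.27% ± 0.0508 in KO libraries (SD, n = 3 each). After TMM scaling the order of the means turned, to 12615 CPM in WT and 13026 CPM in KO libraries. Glycolysis made up 1.03% and 1.04% of counts in WT and KO libraries, the pentose phosphate pathway 0.202% and 0.189%, and the glycogen genes 0.0465% and 0.0441%.

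**Figure D3:**
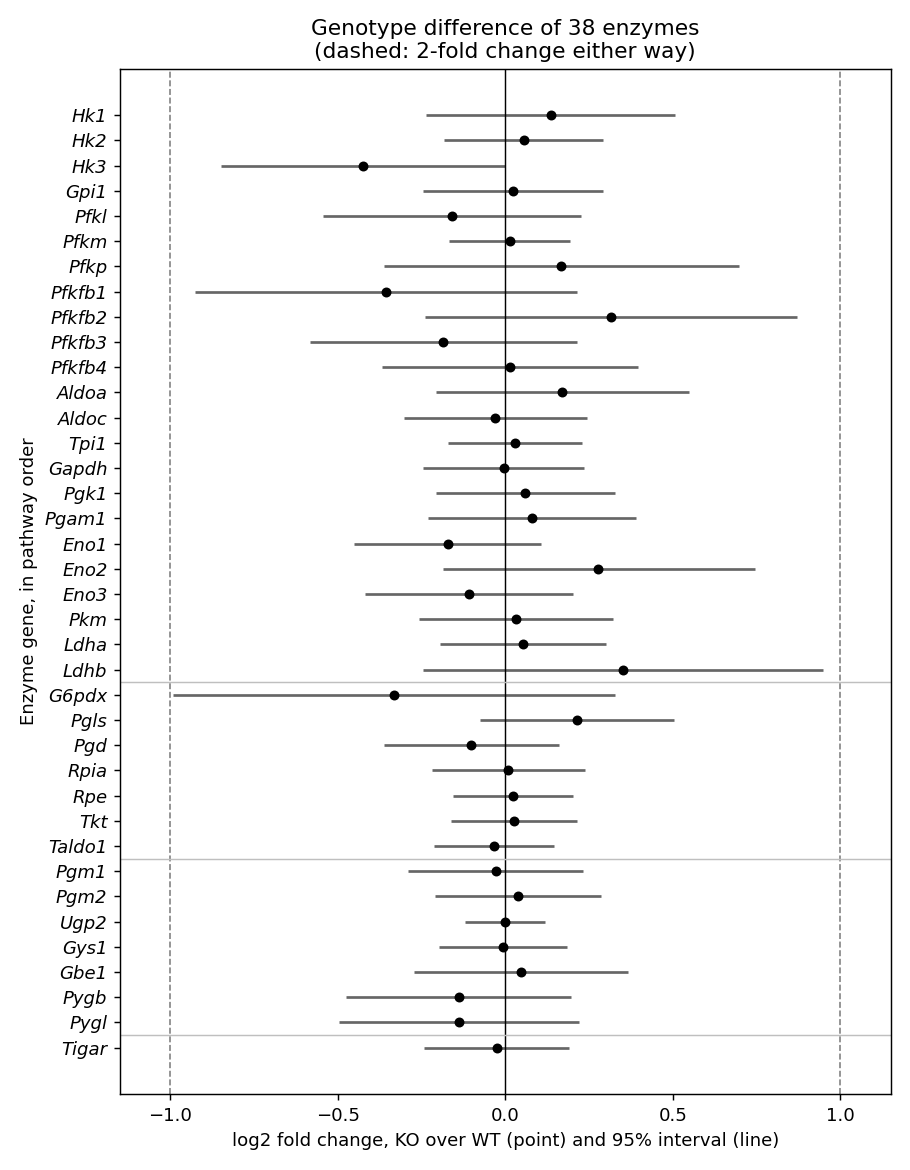
Log2 fold change of KO over WT for each of the 38 tested enzymes, as a point with its 95% confidence interval from edgeR's quasi-likelihood fit. Estimates run from −0.42 for *Hk3* to 0.35 for *Ldhb*, and every interval lies inside −1 to 1.

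Of the 23 glycolysis genes tested, 15 had an estimate above 0 and 8 below, with a median of 0.03. *Hk3* (GRCm38 chromosome 13, 55005985 to 55021385) had the smallest p. Its scaled level was 99.8, 92.0 and 67.6 CPM in WT and 57.4, 76.2 and 59.5 CPM in KO libraries, so the genotypes overlapped through WT L082 and KO L078. The log2 fold change was −0.42 (standard error 0.18) with an unadjusted p of 0.0496 and, after adjustment, 0.969 by the edgeR quasi-likelihood fit (Benjamini-Hochberg). The unadjusted p of *Hk3* rose above 0.05 with the size factors of DESeq2 (0.0526), upper quartile scaling (0.0569), a stricter filter (0.0527) or a block for the letter of the animal number (0.0767). It was below 0.05 with the likelihood ratio test (0.0308), the Wald test (0.0348) and no filter (0.0285). *Hk1* stood at 274, 251 and 312 CPM in WT and 349, 244 and 327 CPM in KO libraries, with KO L078 the lowest of all 6 (log2 fold change 0.14, standard error 0.15).

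In the Pfkfb family, *Pfkfb2* stood at 307, 306 and 409 scaled CPM in WT and 511, 293 and 468 CPM in KO libraries. Both the highest and the lowest value came from KO libraries, and the log2 fold change was 0.32 (standard error 0.23). *Pfkfb1*, the form typical of liver and muscle, had 46 to 118 counts per library. It stood at 2.47, 2.40 and 2.99 CPM in WT and 1.69, 2.62 and 1.80 CPM in KO libraries, with KO L078 among the WT values (log2 fold change −0.36, standard error 0.24). *Pfkm*, the leading phosphofructokinase 1 gene by exon length, varied little, with 38.4, 39.0 and 43.4 CPM in WT and 42.6, 38.5 and 40.8 CPM in KO libraries (log2 fold change 0.01, standard error 0.07).

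*Aldoa* stood at 2228, 2218 and 2567 scaled CPM in WT and 2925, 2124 and 2843 CPM in KO libraries, again with the lowest value in KO L078 (log2 fold change 0.17, standard error 0.16). *Pgam1* stood at 161, 146 and 176 CPM in WT and 187, 141 and 182 CPM in KO libraries (log2 fold change 0.08, standard error 0.13). For *Eno1* the highest value was that of WT K090: 883, 677 and 756 CPM in WT and 675, 656 and 726 CPM in KO libraries. Its log2 fold change of −0.17 (standard error 0.12) had an unadjusted p of 0.186. *Eno2* stood at 2.23, 1.94 and 2.31 CPM in WT and 2.90, 2.197 and 2.79 CPM in KO libraries, a log2 fold change of 0.28 (standard error 0.19) at a low level. The adjusted p was 0.969 for *Hk1*, *Pfkfb1*, *Pfkfb2*, *Aldoa*, *Pgam1*, *Eno1* and *Eno2* by the edgeR quasi-likelihood fit (Benjamini-Hochberg).

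At the end of the pathway the 2 lactate dehydrogenase genes differed in their spread. *Ldha* stood at 943, 839.9 and 991 scaled CPM in WT and 977, 877 and 1021 CPM in KO libraries, with overlapping groups and a log2 fold change of 0.05 (standard error 0.10). *Ldhb* stood at 135, 168 and 208 CPM in WT and 254, 149 and 249 CPM in KO libraries. Its highest value was 1.89 times its lowest, the groups overlapped through KO L078, and its log2 fold change of 0.35 had a standard error of 0.25 (95% confidence interval −0.25 to 0.95). *Ldhb*, *G6pdx* and *Ugp2* are described after their values were seen. Reads of *Eno1* and *Aldoa* could be shared with near copies, which had 0 to 7 counts (*Eno1b*) and 41 to 64 counts (*Aldoart1*) per library.

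Of the 7 pentose phosphate genes, 4 had an estimate above 0 and 3 below, with a median of 0.01. *G6pdx*, which makes the first NADPH of the pathway, spread the most of all members. It stood at 148, 132 and 84.6 scaled CPM in WT and 74.8, 129 and 85.2 CPM in KO libraries, so that WT L082 lay with KO K089 and L081, and KO L078 with WT K090 and L080. The log2 fold change was −0.33 (standard error 0.27) with a 95% confidence interval from −0.99 to 0.33, and it was −0.60 without KO L078 and −0.16 without KO K089. *Pgls*, the lactonase of the next step, stood at 71.3, 58.9 and 76.0 CPM in WT and 83.9, 70.6 and 84.9 CPM in KO libraries (log2 fold change 0.22, standard error 0.12, unadjusted p = 0.120). KO L078 lay below 2 of the WT libraries, and the adjusted p of *Pgls* was 0.969 by the edgeR quasi-likelihood fit (Benjamini-Hochberg). Of the exons of *Pgls*, 20.6% of the length is shared with *Fam129c* on the same strand, as is 17.4% of *Pfkfb2* with *Gm29427*, and 13.6% of *G6pdx* is shared with *Ikbkg* on the opposite strand. *Tkt* and *Taldo1* were steady, with standard deviations of log2 CPM over the libraries at percentiles 11.5 and 11.7 of all tested genes.

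Of the 7 glycogen genes, 2 had an estimate above 0 and 5 below, with a median of −0.01. *Ugp2*, which makes UDP-glucose, the building block of glycogen, was the steadiest member. It stood at 79.1, 77.8 and 76.2 scaled CPM in WT and 78.8, 77.3 and 77.0 CPM in KO libraries, the 16th smallest spread of the 13483 tested genes. *Pgm2* stood at 81.7, 77.2 and 94.9 CPM in WT and 90.7, 78.4 and 91.6 CPM in KO libraries, with overlapping groups (log2 fold change 0.04, standard error 0.10). *Pygb*, which releases glucose from glycogen, stood at 60.1, 52.6 and 48.0 CPM in WT and 44.4, 57.9 and 43.6 CPM in KO libraries, with KO L078 above 2 of the WT libraries (log2 fold change −0.14, standard error 0.14). The names *Pgm1* and *Pgm2* have been exchanged between loci in mouse annotations, so which locus each stands for in the count table cannot be told. Their exon lengths, and the promoter window printed for *Pgm1*, were matched by symbol and may belong to the other locus. *Tigar* ran from 24.1 to 28.7 CPM (log2 fold change −0.03, standard error 0.09).

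Over the 38 tested members, KO L078 had the lowest value for 16 and the highest for 1, whereas KO K089 had the highest for 13 and the lowest for 7. After subtracting the 6-library mean of each gene, the median member stood at 0.00, −0.10 and 0.06 log2 in WT and 0.06, −0.10 and 0.06 log2 in KO libraries, so that WT L080 and KO L078 were the low ones. Over all tested genes these medians lay between −0.02 and 0.02. *G6pdx* (percentile 87.8 of the spread of all tested genes), *Ldhb* (86.1), *Pfkfb2* (83.5) and *Hk3* (81.4) varied the most.

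**Figure D4:**
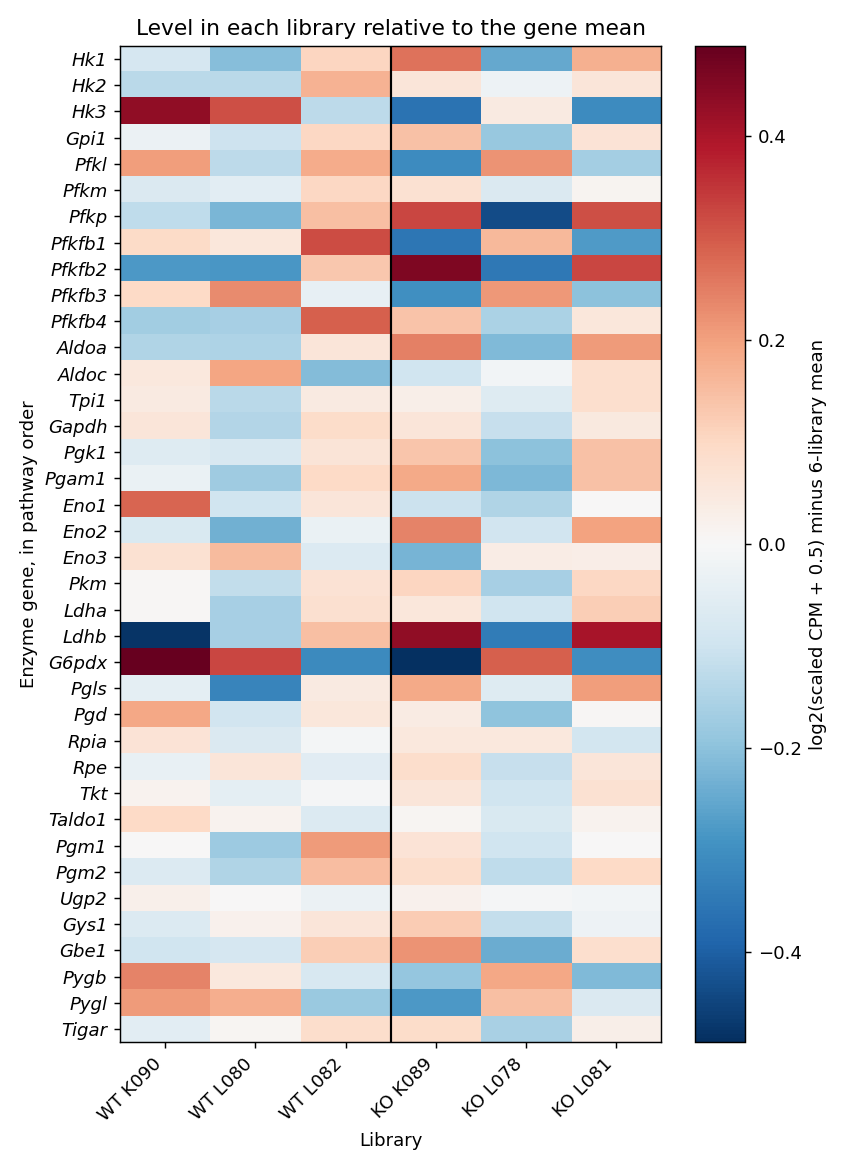
Log2 of scaled CPM (with 0.5 added) of each enzyme in each library, minus the gene's mean over the 6 libraries, in pathway order. *G6pdx* is high in WT K090, WT L080 and KO L078. *Hk3* is high in WT K090 and WT L080 but only 0.05 above its mean in KO L078. *Ldhb* and *Pfkfb2* are high in WT L082, KO K089 and KO L081, and *Ugp2* is flat.

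Sums of cell type markers differed between the same libraries. The 14 osteoclast markers summed to 43104, 55727 and 61359 CPM in WT and 75167, 47717 and 68817 CPM in KO libraries. *Ldhb* put the 6 libraries in the same order, from WT K090 to KO K089. *Mmp9*, *Acp5* and *Ctsk* had the highest levels in this sum. The median of the 14 markers, each centred on its 6-library mean, kept the order, but *Calcr* (88.8 scaled CPM) and *Car2* (253) were lowest in WT L082. All 14 osteoclast markers had an estimate above 0, and 0 were called in edgeR's quasi-likelihood test (0 at an unadjusted p below 0.05). The macrophage markers, 10 of 13 with an estimate below 0 and 0 called, were high by sum and by median in WT K090, WT L080 and KO L078. *G6pdx* was high in these 3 libraries too. *Hk3* had its highest values in them, but KO L078 (76.2 scaled CPM) lay nearer to WT L082 (67.6) than to WT L080 (92.0). Not every marker followed. *Cd68* was lowest in WT K090, WT L080 and KO L078, at 1454, 1578 and 1491 scaled CPM. *Csf1r* was lowest in KO L078 (1724) and WT K090 (1757). The 12 interferon response genes summed to 253, 137 and 36.7 CPM in WT and 24.7, 163 and 48.4 CPM in KO libraries, with the same 3 libraries high. The 10 proliferation genes summed to 1095, 764 and 752 CPM in WT and to 474, 1064 and 593 CPM in KO libraries, and the 12 osteoblast and stromal markers to between 657 and 2045 CPM, highest in KO L078. No marker of these 5 lists that is in the count table was at 0 in all libraries. The part of these cell states in the levels of the enzymes was not tested.

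**Figure D5:**
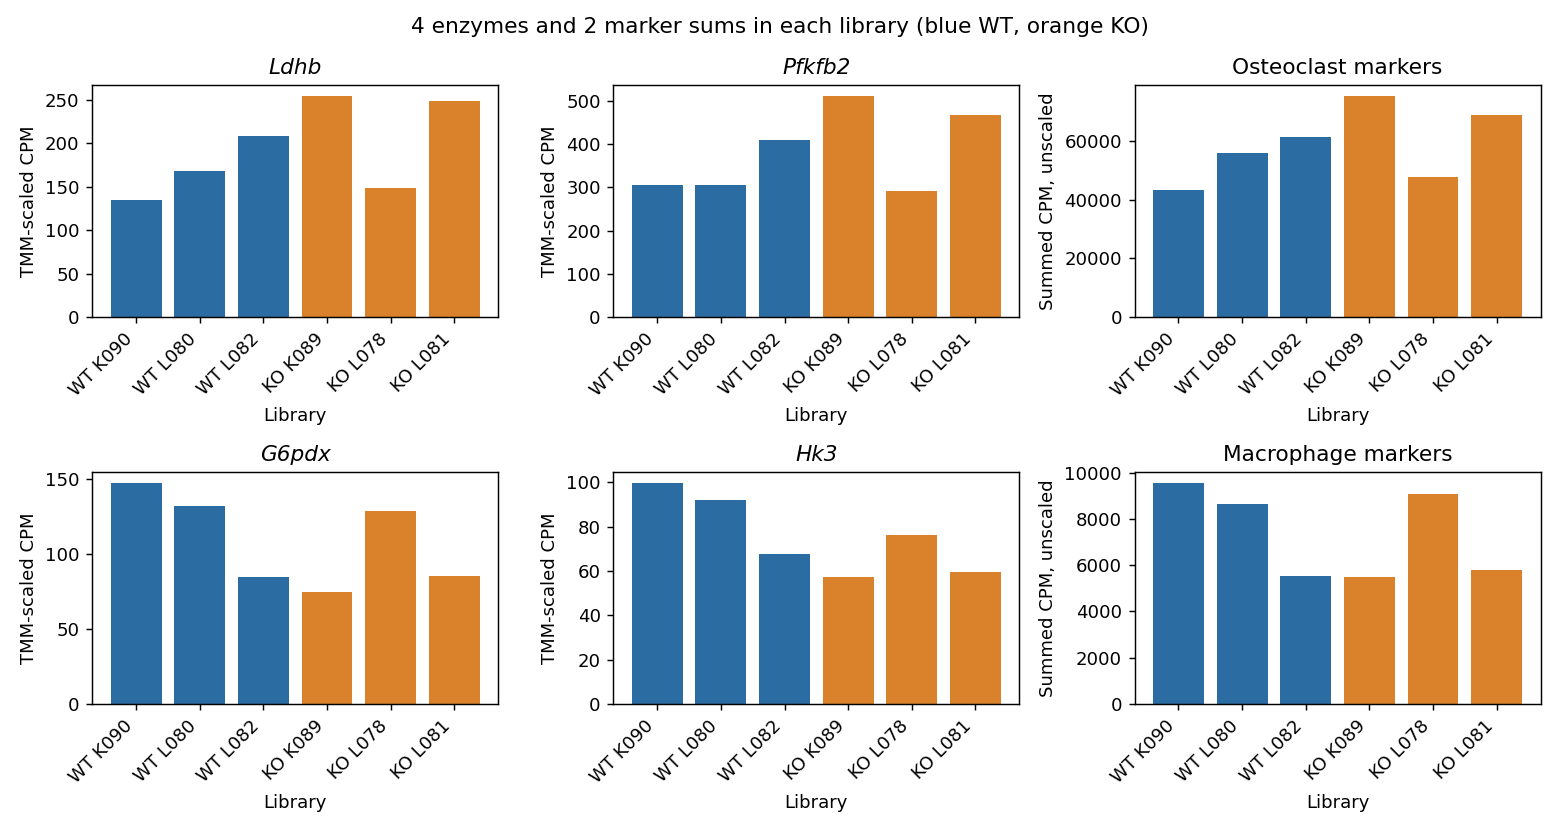
Scaled CPM of *Ldhb*, *Pfkfb2*, *G6pdx* and *Hk3*, beside the summed CPM of 14 osteoclast and 13 macrophage markers, with 1 bar per library and axes from 0. *Ldhb* is lowest in WT K090 (135) and highest in KO K089 (254), as is the osteoclast sum (43104 and 75167), while *G6pdx* is high in WT K090 (148), WT L080 (132) and KO L078 (129), as is the macrophage sum.

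Because KO L078 lay with WT K090 and L080, though not with WT L082, the comparison was repeated without it. Leaving out a library picked for its values sets the groups further apart by the choice itself, over all genes as well. The counts without KO L078 are therefore no separate result on genotype. The count of members at an unadjusted p below 0.05 then went from 1 to 12 of 38 (31.6%), beside 20.1% of all genes, and the groups did not overlap for 17 members (44.7%), beside 41.6% of all genes. The lowest adjusted p of a member was then 0.227, shared by *Pfkfb2* (log2 fold change 0.52), *Hk3* (−0.57) and *Ldhb* (0.56), by the edgeR quasi-likelihood fit (Benjamini-Hochberg), so still 0 were called. Without WT L082, 2 members (*Hk2* and *Hk3*) were at an unadjusted p below 0.05, beside 1.98% of all genes, and 6 (15.8%) did not overlap, beside 16.4%. Without WT L080, 2 members (5.26%) did not overlap, beside 9.6% of all genes, and 0 were at an unadjusted p below 0.05, beside 0.415%.

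Genes next to these pathways were read from lists. In each of the 6 lists, 0 genes were called by the edgeR quasi-likelihood fit (Benjamini-Hochberg), and 0 were at an unadjusted p below 0.05. Of 9 tested isoenzymes of the same steps that are no members, 4 had an estimate above 0 and 5 below (median −0.02). The lowest p was that of *H6pd*, the glucose-6-phosphate dehydrogenase of the endoplasmic reticulum (130 ± 18.9 CPM in WT, 111 ± 9.53 CPM in KO, SD, n = 3 each, log2 fold change −0.23). Of 16 tested genes of the glycogen particle and phosphorylase kinase, 9 were above 0 and 7 below (median 0.01).

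Another list held 22 genes of pyruvate entry and use in mitochondria, of its control, and of the shuttles for electrons of cytosolic NADH. Of these, 16 were above 0 and 6 below (median 0.05). The list mixes activators and inhibitors, such as *Pdk1*, so these counts give no direction of pyruvate use. The lowest p was that of *Gpd1*, the cytosolic glycerol-3-phosphate dehydrogenase. It stood at 0.809, 1.10 and 1.22 CPM in WT and 0.697, 0.732 and 0.742 CPM in KO libraries, with every KO library lower and an unadjusted p of 0.0783. Every KO library was lower also for *Gpd1l*, a relative of it named after its values were seen, at 73.2, 76.2 and 71.7 CPM in WT and 71.1, 69.5 and 71.5 CPM in KO libraries (log2 fold change −0.06, standard error 0.05). These are 2 of the 22 genes, beside 2.81% of all genes. Of 19 genes of fructose, polyol, mannose and hexosamine use, 10 were above 0 and 9 below (median 0.01). *Gfpt1*, the entry to hexosamine synthesis, had the lowest p (log2 fold change 0.18, standard error 0.10). *Tkfc*, also named after its values were seen, was the 1 gene of this list with every KO library higher, beside 1.5% of all genes. It stood at 9.21, 8.90 and 8.99 CPM in WT and 9.69, 9.59 and 10.7 CPM in KO libraries (log2 fold change 0.14, standard error 0.10). Of 12 glucose and lactate transporters, 4 were above 0 and 8 below (median −0.08). The lowest p was that of the urate and sugar carrier *Slc2a9* (4.77 ± 0.716 CPM in WT, 3.30 ± 1.55 CPM in KO, SD, n = 3 each, log2 fold change −0.52).

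The last list holds genes of the hypoxia and HIF-1 response. Neither oxygen nor HIF-1 binding was measured, so it cannot say what the promoter matches shown above do. Of the 25 tested genes of this list, which exclude the members, 13 were above 0 and 12 below, with a median of 0.00. Their summed level was 1194 to 1272 CPM in WT and 1207 to 1235 CPM in KO libraries. The gene with the lowest p was *Adm*, the vasodilator peptide adrenomedullin (1.98 ± 0.778 CPM in WT, 1.10 ± 0.721 CPM in KO, SD, n = 3 each, log2 fold change −0.81, standard error 0.52). *Pdk1*, *Slc2a1* and *Slc16a3* stand in 2 of the lists each. Among the 6 members with printed windows, log2 fold changes ran from −0.03 (*Pgm1*) to 0.06 (*Pgk1*). For *Pgm1* the window and the counts may be of different loci.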

How the data were processed

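RNAseq was performed on an Illumina instrument, and reads were demultiplexed with bcl2fastq 2.20.0.422 per the submitters' processing notes, which name genome build mm10. Aligner, counting tool, strand setting and annotation were not given in the sources used here. Whole-number counts per gene and library, not normalized, were deposited by the authors together with the results of their own edgeR 3.30.3 comparison (log2 fold change, log CPM, likelihood ratio, p-value and FDR) and a list of the first genes of that table, which were not used. Columns were assigned to genotypes from their headings, and 0 columns belonged to other samples. The labels call the samples biological replicates, and the p-values weigh the genotype difference against the spread between them. KO K089 and KO L081 were the most alike pair of libraries. Their counts gave a chi-square per degree of freedom of 5.18, and the other pairs gave 14.5 to 85.4. The cause was not tested.

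Counts were analysed with edgeR 4.0.16 and limma 3.58.1 in R 4.3.3: filterByExpr, TMM scaling (factors 0.931 to 1.06), glmQLFit and glmQLFTest for KO over WT, with Benjamini-Hochberg adjustment over 13483 genes, which held at least 99.9% of the counts of each library. The biological coefficient of variation was 20.8%. For each estimate, the 95% confidence interval was taken from its standard error and the total degrees of freedom. Total exon lengths came from GENCODE M21 (GRCm38), matched by symbol for 12855 genes. Of 2 genes named *Aldoa* there, the one overlapping the RefSeq gene was used. Overlapping exons were read from the same annotation. Figures were drawn with matplotlib 3.10.9 in Python 3.11.15.

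Members and gene lists were chosen with earlier results of these data known. Full values were given for the 5 members with the smallest p and the leading isoenzyme of each step, and from each list the gene with the smallest p, except 1 that is not reported here. Alternatives were DESeq2 1.42.0 (size factors and Wald test), upper quartile scaling, no filter, at least 1 CPM in 3 libraries, the likelihood ratio test, the letter of the animal number as a block, other lengths and each library left out. Proteomics and metabolomics were not analysed here.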

Additional observations from a re-analysis of the deposited data

How the results depend on the processing

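The number of members called was 0 under every alternative, and between 35 and 38 of 38 intervals stayed inside a 2-fold change with a library left out. The number of members at an unadjusted p below 0.05 was 0 in place of 1 with upper quartile scaling, with size factors of DESeq2, with a filter of at least 1 CPM in 3 libraries and with the letter of the animal number as a block, and ran from 0 to 12 with a library left out, highest without KO L078. The number with groups that did not overlap ran from 0 to 17 with a library left out, again highest without KO L078. Estimates near 0 changed sign: *Ugp2* was 0.02 with DESeq2's size factors (0.0175) and with its Wald test (0.0167), 0.01 with upper quartile scaling (0.0103) and 0.000674 to 0.0263 with a library left out. With a library left out, *Ldha* ran from −0.0125 to 0.13, *Pfkm* from −0.0197 to 0.0951 and *Pgm2* from −0.0229 to 0.154. Larger estimates kept their sign but moved by over 1.5 times with a library left out: *G6pdx* ran from −0.60 (without KO L078) to −0.16 (without KO K089), *Ldhb* from 0.21 (without WT K090) to 0.56 (without KO L078), *Pfkfb2* from 0.19 (without KO K089) to 0.52 (without KO L078), *Pfkfb1* from −0.58 (without KO L078) to −0.22 (without KO K089), *Hk1* from 0.06 (without KO K089) to 0.28 (without KO L078), *Aldoa* from 0.11 (without KO K089) to 0.30 (without KO L078), *Eno1* from −0.26 (without WT L080) to −0.06 (without WT K090), *Pgls* from 0.12 (without WT L080) to 0.32 (without WT L082), *Pygb* from −0.28 (without KO L078) to −0.05 (without WT K090) and *Pgam1* from 0.01 (without WT L080) to 0.20 (without KO L078). The median over members was −0.02 to 0.07 with a library left out. The cause of these shifts was not tested. No paired analysis was possible because the columns of the count table carry no replicate numbers. Counts were fewest for *Pgam2* (0 to 6 per library), *Eno2* (55 to 99) and *Pfkfb1* (46 to 118).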
